A study of Rattus norvegicus with 6 samples.

Results

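The small heat shock proteins examined here are encoded by Hspb1, Hspb2, Hspb6, Hspb7, Hspb8 and Cryab, which were taken by gene symbol from the count table, and 6 of the 6 were found among 14475 genes. The cells are vascular smooth muscle (VSM) cells grown out of soleus feed arteries (SFA), which supply the soleus muscle, from male F344 (Fischer) rats aged 4 months (young, 3 libraries) or 24 months (old, 3 libraries). Each sample was 1 stranded library of polyadenylated RNA, and the labels name no transgene, gene deletion or treatment in either age. The labels number replicates within each age and name no batch, and the cells had been grown in culture with serum, so the values describe cultured cells and not the intact vessel. The comparison asks how the messages of these chaperones differ between old and young VSM cells, with young as the reference.

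Small heat shock proteins are ATP-independent chaperones that share an α-crystallin domain, assemble into oligomers and hold unfolding proteins until the HSP70 system refolds them or hands them to degradation. In muscle they guard the cytoskeleton. HSPB1 (HSP27) is phosphorylated downstream of p38 MAP kinase and influences actin filaments, and HSPB6 (HSP20) is a target of the cyclic nucleotide kinases that relax smooth muscle. HSPB8 acts with BAG3 in the autophagy of damaged filamin, αB-crystallin (the product of Cryab) protects desmin filaments, HSPB7 is a cardiovascular member that binds filamin C, and HSPB2 was first described as a partner of the myotonic dystrophy kinase.

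The promoter sequences are shown because heat shock factor HSF1 binds inverted repeats of the unit GAA, and so the letters bear on which of these genes carry such a repeat near their start. All 6 genes matched RefSeq by symbol, and promoter windows of RefSeq on build GRCr8, a different build from that of the counts, were used for Hspb1, Hspb6, Hspb7 and Hspb8. No window was used for Hspb2 and Cryab. Each line gives, 5′ to 3′, the 150 bases before the annotated start, with matches to GAANNTTC, a motif that reads the same on both strands, in capitals.
Hspb1 (chr12:26432302-26432451, minus strand): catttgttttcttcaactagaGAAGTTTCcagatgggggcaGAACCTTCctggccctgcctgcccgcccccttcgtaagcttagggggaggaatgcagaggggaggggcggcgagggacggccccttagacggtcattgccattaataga
Hspb6 (chr1:94934222-94934371, plus strand): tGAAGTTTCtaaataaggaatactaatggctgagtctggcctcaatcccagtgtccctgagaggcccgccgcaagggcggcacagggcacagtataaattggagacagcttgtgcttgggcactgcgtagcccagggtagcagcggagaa
Hspb8 (chr12:45837158-45837307, plus strand): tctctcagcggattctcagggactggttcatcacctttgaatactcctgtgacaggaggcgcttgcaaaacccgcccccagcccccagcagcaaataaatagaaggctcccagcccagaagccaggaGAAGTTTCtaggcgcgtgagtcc
Hspb7 (chr5:159010609-159010758, plus strand): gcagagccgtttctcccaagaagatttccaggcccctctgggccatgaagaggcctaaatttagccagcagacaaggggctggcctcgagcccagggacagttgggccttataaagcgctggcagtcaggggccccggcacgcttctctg
The motif began 129 and 109 bases before the start of Hspb1, 149 bases before that of Hspb6 and 23 bases before that of Hspb8, with 0 matches in the 300-base window of Hspb7. The first match of Hspb1 and the matches of Hspb6 and Hspb8 had the same 8 letters, GAAGTTTC. Of 33469 RefSeq promoter windows of that length, 8.59% held GAANNTTC. The CArG box of serum response factor was searched only as CC, then 6 letters of A or T, then GG. This strict form had 0 matches on either strand of the 4 windows and was present in 1.64% of all windows. Looser forms and more distant sequence were not searched. A match is a string of letters and was not tested as a binding site.

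Total counts per library were between 44235674 and 59700887, and normalized values are CPM, counts per library scaled to a common total, after TMM scaling. The lowest count of any small heat shock protein gene in a library was 453, for which counting error alone is 4.7% of the value. It is 6.64% if both mates of a read pair were counted, which may be so because 68.7% to 71.1% of counts from 1 to 19 were even numbers. The total counts of every library also exceeded the largest number of reads per sample that the paper gives. Old replicate 1 was closer to the young libraries than the other old libraries were, with a lowest Spearman's rho across genes of 0.968 against the young libraries, where old replicates 2 and 3 had 0.942 and 0.949. Fold changes of the 6 genes are therefore also given without it. Because it was singled out as the old library most like the young ones, leaving it out favors larger differences. A smaller adjusted p without it is no added support for a difference. All 8 VSM markers of a fixed list were present, with summed levels of 11556 to 21477 CPM in young and 3564 to 5737 CPM in old libraries. The lists of other cell types are given after the results. Transcript lengths of the annotation that was counted were not used here, so levels are compared between libraries and not between genes.

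Cryab, Hspb6 and Hspb1 had the lowest levels in old relative to young VSM cells, with old means of 0.205, 0.297 and 0.434 times the young means. Hspb2 was lower by a smaller amount, and all old libraries of these 4 genes had less than any young library. The libraries overlapped for Hspb7 and Hspb8, and the mean of Hspb8 was the only one higher in old. In edgeR's quasi-likelihood test over all genes, calls required a size of 1 or more on the log2 scale besides adjusted p under 0.05. By this rule 0 of the 6 genes were called, where 0.00691% of all genes were (1 gene, none of the 6). The DESeq2 Wald test on the same counts called Hspb1, Hspb6 and Cryab, that is 3 of 6 as lower in old, where it called 3.31% of all genes lower. With limma-voom, 0 of the 6 and 0 of all 14475 genes were called. Before adjustment, edgeR gave p under 0.05 to 4 of the 6 as lower and 0 as higher, where 11.5% of all genes were lower and 11.2% higher. Old libraries lay wholly below young ones for 4 of the 6 genes, where this held for 14.7% of all genes, and wholly above for 0 of the 6, where it held for 14.5%. The median log2 fold change was -0.97 over the 6 genes and 0.02 over all genes.

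**Figure D1:**
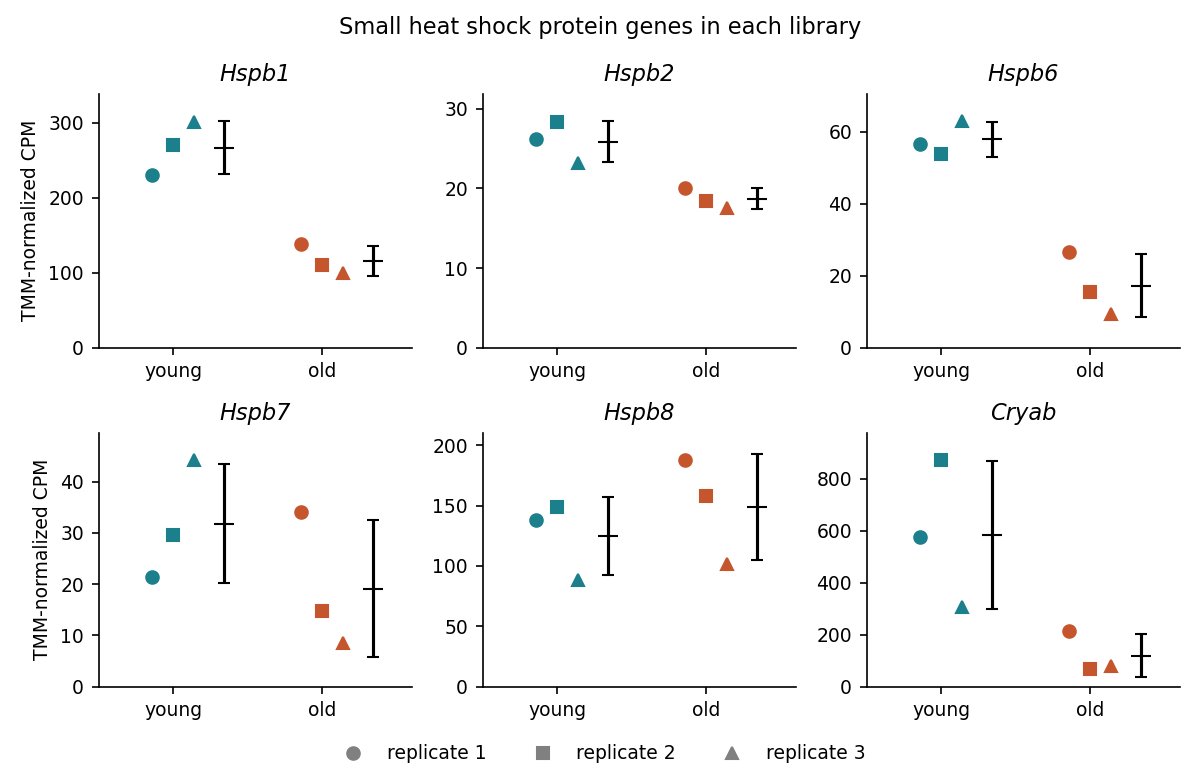
TMM-normalized CPM (vertical axes, linear from 0, 1 panel per gene) in each of the 3 young and 3 old libraries, with marker shape giving the replicate and the black bar giving the mean and SD (n = 3). Old libraries sit below all young libraries for Hspb1, Hspb2, Hspb6 and Cryab and overlap them for Hspb7 and Hspb8, and old replicate 1 is the highest old library in all 6 panels.

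Hspb1 (ENSRNOG00000023546), the widely expressed chaperone of actin filaments, had 230, 271 and 301 CPM in young replicates 1, 2 and 3 and 138, 110 and 99.5 CPM in old replicates 1, 2 and 3. Every old library lay below every young one, and the spread within an age was small, with coefficients of variation of 13.4% in young and 17.3% in old. The young mean was 267 ± 35.8 CPM and the old mean 116 ± 20.1 CPM (SD, n = 3 each), and edgeR put the log2 fold change at -1.21 (standard error, SE, 0.17) with an adjusted p = 0.0531. In DESeq2 the adjusted p = 5.66e-08, and in limma-voom it was 0.0524. The edgeR value lay near its threshold. On the genes with at least 1 CPM in at least 3 libraries the adjusted p = 0.0494 in edgeR, which called Hspb1 as 1 of 65 genes. Leaving out old replicate 1, a fit that called 732 genes, gave a log2 fold change of -1.35 (adjusted p = 0.0262 in edgeR). With any other library left out it was between -1.31 and -1.11 and did not pass.

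Hspb6 (ENSRNOG00000020922), the target of the relaxing cyclic nucleotide kinases, had 56.7, 53.9 and 63.1 CPM in young replicates 1, 2 and 3, and old replicates 1, 2 and 3 had 26.7, 15.5 and 9.35 CPM. The young libraries were tightly grouped, with a coefficient of variation of 8.22%, whereas the old ones were spread over a coefficient of variation of 51.2%. The means were 57.9 ± 4.76 CPM (SD, n = 3) and 17.2 ± 8.79 CPM (SD, n = 3), which gave a log2 fold change of -1.75 (SE 0.36, adjusted p = 0.0799 in edgeR, 0.000117 in DESeq2). Leaving out old replicate 1, the highest old library, gave -2.22 with an adjusted p = 0.0262 in edgeR. Leaving out old replicate 3, the lowest, gave -1.46 and an adjusted p = 0.132 in edgeR. Within a library, the log2 ratio of Hspb6 to Hspb1 CPM was -2.02, -2.33 and -2.26 in the young and -2.37, -2.83 and -3.41 in the old libraries. Each old ratio was below each young one, with a difference of -0.67, and the exact two-sided permutation test gave p = 0.1, the smallest that 3 against 3 libraries can give (0.15 adjusted over 3 pairs). The difference was -0.40 without old replicate 3 and -0.92 without old replicate 1.

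Cryab (ENSRNOG00000010524), which encodes αB-crystallin, had 575, 874 and 307 CPM in young replicates 1, 2 and 3 and 214, 66.5 and 79.5 CPM in old replicates 1, 2 and 3. The groups did not overlap, although young replicate 3 was closer to old replicate 1 than to the highest young library. Its means were 585 ± 284 CPM (SD, n = 3) and 120 ± 81.7 CPM (SD, n = 3), and the log2 fold change of -2.29 (SE 0.58) had a 95% interval from -3.68 to -0.89. Only 1.08% of all genes had a lower log2 fold change. The adjusted p = 0.111 in edgeR and 0.000467 in DESeq2, and without old replicate 1 the log2 fold change was -3.0 (adjusted p = 0.0332 in edgeR). With young replicate 2, the highest young library, left out, it was -1.87 (adjusted p = 0.288 in edgeR).

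Hspb2 (ENSRNOG00000051792) is the head-to-head neighbor of Cryab, and the models of both genes overlap in RefSeq on GRCr8. How featureCounts treated strand is not stated in the sources used here, so reads of the shared stretch may have been assigned to either gene or to neither. Young replicates 1, 2 and 3 had 26.2, 28.4 and 23.2 CPM of Hspb2, and old replicates 1, 2 and 3 had 20.1, 18.4 and 17.5 CPM. Its old coefficient of variation of 7.18% was the smallest of the 6 genes. Old libraries lay below young ones by a narrow gap. With means of 25.9 ± 2.61 CPM (SD, n = 3) and 18.7 ± 1.34 CPM (SD, n = 3), edgeR gave Hspb2 -0.47 on the log2 scale (SE 0.11, adjusted p = 0.106). In DESeq2 the adjusted p = 0.0102, but the log2 fold change of -0.48 was below the threshold in size. Leaving out old replicate 1 gave -0.53 (adjusted p = 0.0552 in edgeR). The log2 ratio of Cryab to Hspb2 was 4.46, 4.95 and 3.73 in the young and 3.41, 1.85 and 2.18 in the old libraries, with each old ratio below each young one. The difference of -1.90 had an exact two-sided permutation p = 0.1 (0.15 adjusted over the 3 pairs), again the smallest possible, and it was between -2.36 and -1.58 with each library left out.

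Hspb7 (ENSRNOG00000029079), the cardiovascular member, had 21.4, 29.6 and 44.3 CPM in young replicates 1, 2 and 3 and 34.1, 14.8 and 8.45 CPM in the old ones. Old replicate 1 exceeded young replicates 1 and 2, and the other old libraries were below all young libraries. With means of 31.8 ± 11.6 CPM (SD, n = 3) and 19.1 ± 13.4 CPM (SD, n = 3), the log2 fold change was -0.73 (SE 0.53, adjusted p = 0.429 in edgeR, 0.373 in DESeq2). Its 95% interval ran from -2.0 to 0.54, which spans lower and higher levels in old. Without old replicate 1 the log2 fold change was -1.45 (adjusted p = 0.0807 in edgeR), whereas leaving out old replicate 3 gave -0.38 (adjusted p = 0.69 in edgeR).

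Hspb8 (ENSRNOG00000022392), the BAG3 partner, had 138, 149 and 88.0 CPM in young replicates 1, 2 and 3, against 188, 158 and 102 CPM in old replicates 1, 2 and 3. The ranges overlapped, and replicate 3 was the lowest library of either age. The means of 125 ± 32.4 CPM (SD, n = 3) and 149 ± 43.8 CPM (SD, n = 3) gave a log2 fold change of 0.26 (SE 0.28, adjusted p = 0.603 in edgeR, 0.64 in DESeq2), with a 95% interval from -0.42 to 0.94. The log2 ratio of Hspb8 to Bag3 was 0.63, 0.63 and 0.08 in the young and 1.13, 0.91 and -0.19 in the old libraries, a difference of 0.16 with an exact two-sided permutation p = 0.7 (0.7 adjusted over the 3 pairs). The sign of that difference turned without young replicate 3 (-0.02) or old replicate 1 (-0.09), and with each other library left out it was between 0.02 and 0.57. The log2 fold change of Hspb8 itself was 0.06 without young replicate 3 or old replicate 1 and 0.47 without old replicate 3, with none of these past the threshold.

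The 6 genes followed no single order across young libraries, whereas across old libraries all but Cryab fell from replicate 1 to 2 to 3. Old replicate 1 had the highest old value of 6 of the 6 genes, and old replicate 3 had the lowest of 5, Cryab being lowest in old replicate 2. Among young libraries, replicate 3 had the highest values of Hspb1, Hspb6 and Hspb7 and the lowest of Hspb2, Hspb8 and Cryab. Young replicate 3 also had the largest sum of VSM markers, at 21477 CPM, and old replicate 1 the largest old sum, at 5737 CPM. The part of this difference between libraries in the values of the small heat shock proteins was not tested.

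**Figure D2:**
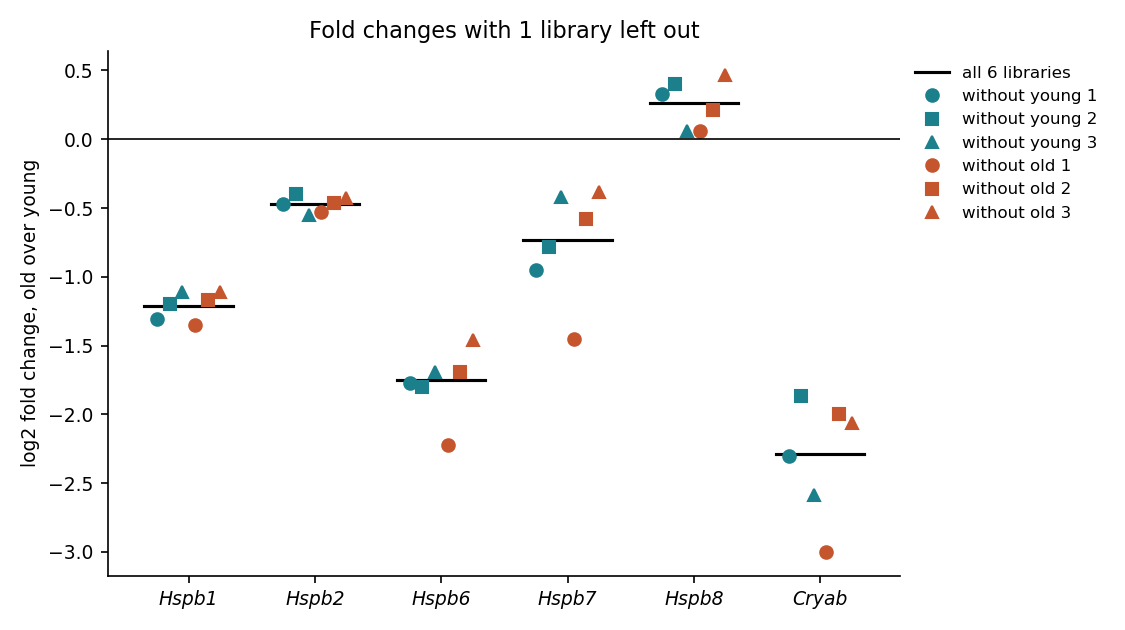
edgeR log2 fold change of old over young (vertical axis) for each gene with all 6 libraries (black line) and with 1 library left out (colored markers). Leaving out old replicate 1 gave the lowest value for Hspb1, Hspb6, Hspb7 and Cryab, at -1.35, -2.22, -1.45 and -3.0, and every value of Hspb8 stayed between 0.06 and 0.47.

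The BAG3 complex ties HSPB8 to the constitutive HSP70 and the ubiquitin ligase CHIP, and hands damaged filamin to autophagy. Of the 8 genes on its list, 6 had lower and 2 higher values with age, the median being -0.16 on the log2 scale. edgeR called 0 of them (2 lower and 1 higher at an unadjusted p under 0.05, beside 11.5% lower and 11.2% higher of all genes). Bag3 itself had 89.1, 95.7 and 83.1 CPM in young and 85.9, 84.2 and 116 CPM in old libraries, with a log2 fold change of 0.10 (SE 0.15). Hspa8, the constitutive HSP70, was at -0.05 (SE 0.12) and Stub1, which encodes CHIP, at -0.10 (SE 0.11). For the co-chaperone Dnajb6 the log2 fold change was -0.21 (SE 0.11). The 95% intervals of these 4 partners lay inside -0.48 to 0.45.

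Of the filamins, Flna was lower in all old libraries and Flnc overlapped between ages. The cargo receptor was higher, and none of them passed the threshold. Flna, the filamin that crosslinks actin, had 5751, 6476 and 7452 CPM in young and 4716, 3123 and 3523 CPM in old libraries. Its log2 fold change was -0.79 (SE 0.23, adjusted p = 0.134 in edgeR). Flnc, the muscle filamin bound by HSPB7, had 455, 526 and 604 CPM in young and 478, 363 and 292 CPM in old libraries, that is -0.48 on the log2 scale (SE 0.21, adjusted p = 0.231 in edgeR). Old replicate 1 again lay within the young range. Synpo2, the BAG3-binding scaffold at actin filaments, was low throughout, at 3.34, 4.02 and 4.29 CPM in young and 2.53, 1.6 and 2.95 CPM in old libraries. Sqstm1, the autophagy receptor p62, had 204, 236 and 205 CPM in young and 275, 313 and 479 CPM in old libraries, and edgeR gave it 0.73 on the log2 scale (SE 0.22, adjusted p = 0.143). All old libraries of Sqstm1 were above the young ones and all old libraries of Flna and Synpo2 were below them.

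**Figure D3:**
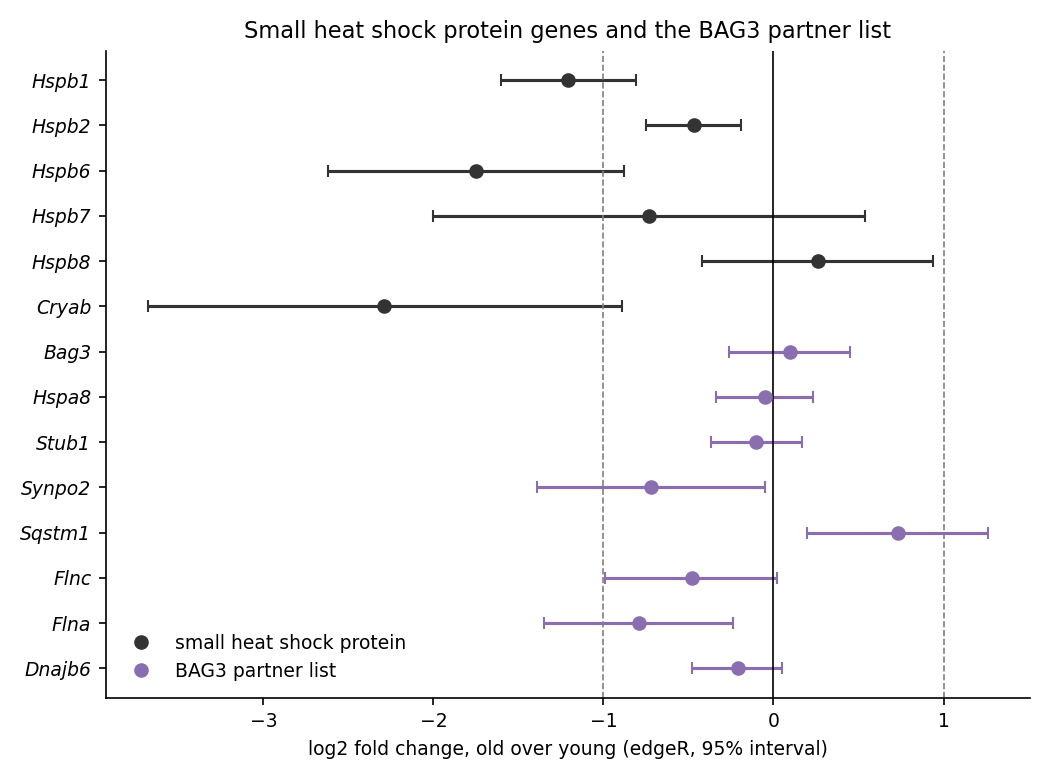
edgeR log2 fold change of old over young (horizontal axis) with its 95% interval for the 6 small heat shock protein genes (black) and the 8 genes of the BAG3 list (purple), dashed lines marking the threshold of 1 in either direction. Intervals of Hspb1, Hspb2, Hspb6 and Cryab lie below 0 before adjustment over all genes, and those of Hspb7, Hspb8, Bag3, Hspa8, Stub1, Flnc and Dnajb6 include 0.

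Heat shock factors drive the stress-inducible chaperones together with Hspb1 and Cryab. In the list of 16 such genes, 14 had a row among the genes analysed here, of which 11 had lower and 3 higher values with age, the median being -0.21. edgeR called 0 (4 lower and 0 higher at an unadjusted p under 0.05, beside 11.5% lower and 11.2% higher of all genes). DESeq2, which called 3.31% of all genes lower, called 2 of the list, both lower. These were Hspa1l at -1.33 (SE 0.44) and Hspa1a at -1.23 (SE 0.26, adjusted p = 0.0805 in edgeR), the lowest 2 of the list. Hspa1a, an inducible HSP70, had 12.9, 17.5 and 17.9 CPM in young and 8.99, 4.89 and 6.70 CPM in old libraries. Its close copies Hspa1b and Hspa1l make the assignment of its reads uncertain. The highest were Hsf4 at 0.81 (SE 0.39) and Hsf1, the main stress-responsive factor, at 0.14 (SE 0.13), which had 20.8 ± 1.21 CPM in young and 22.9 ± 3.02 CPM in old (SD, n = 3 each).

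The list of 13 kinases holds those that phosphorylate or bind small heat shock proteins and the p38 MAP kinases upstream. Of these 13, 10 were lower and 3 higher, with a median of -0.19. edgeR called 0 (2 lower and 0 higher at an unadjusted p under 0.05, beside the 11.5% lower and 11.2% higher of all genes). The lowest were Dmpk, the myotonic dystrophy kinase that HSPB2 binds, at -1.0 (SE 0.40) from 1.19 ± 0.114 CPM (SD, n = 3) in young, and Prkd1, protein kinase D1, at -0.35 (SE 0.15). The highest were Mapk13 at 0.75 (SE 0.52) and Mapkapk3 at 0.46 (SE 0.36), kinases of the p38 pathway. Mapk13 was barely detected, at 0.22 ± 0.12 CPM in young and 0.369 ± 0.132 CPM in old (SD, n = 3 each), and its libraries overlapped. Of the filament clients and 14-3-3 adaptors, 11 of 12 were lower and 1 higher, with a median of -0.33. edgeR called 0 (2 lower and 0 higher at an unadjusted p under 0.05, beside the same shares of all genes). The extremes were Ttn, encoding titin, at -1.06 (SE 0.67) with 0.403 ± 0.0917 CPM (SD, n = 3) in young, and Actb at -0.81 (SE 0.28), against Vim, encoding vimentin, at 0.37 (SE 0.22). Des, whose product desmin is the classical client of αB-crystallin, was next at -0.11 (SE 0.76), with 1.98 ± 0.876 CPM in young and 1.84 ± 1.34 CPM in old (SD, n = 3 each).

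Smooth muscle contractile genes and cofactors of serum response factor include targets of the serum response factor pathway that drives the contractile program. Of 17 genes, 16 were lower and 1 higher, the median being -1.64. In 16, old libraries lay below the young ones, where this held for 14.7% of all genes. edgeR called 0 (16 lower and 0 higher at an unadjusted p under 0.05, beside 11.5% lower and 11.2% higher of all genes). DESeq2, which called 3.31% of all genes lower, called 11 of the list, each lower. Values ran from -3.95 for Actg2 (SE 0.84) and -3.08 for Myh11 (SE 0.55) to -0.55 for Smtn (SE 0.20) and 0.13 for Mrtfb (SE 0.14).

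**Figure D4:**
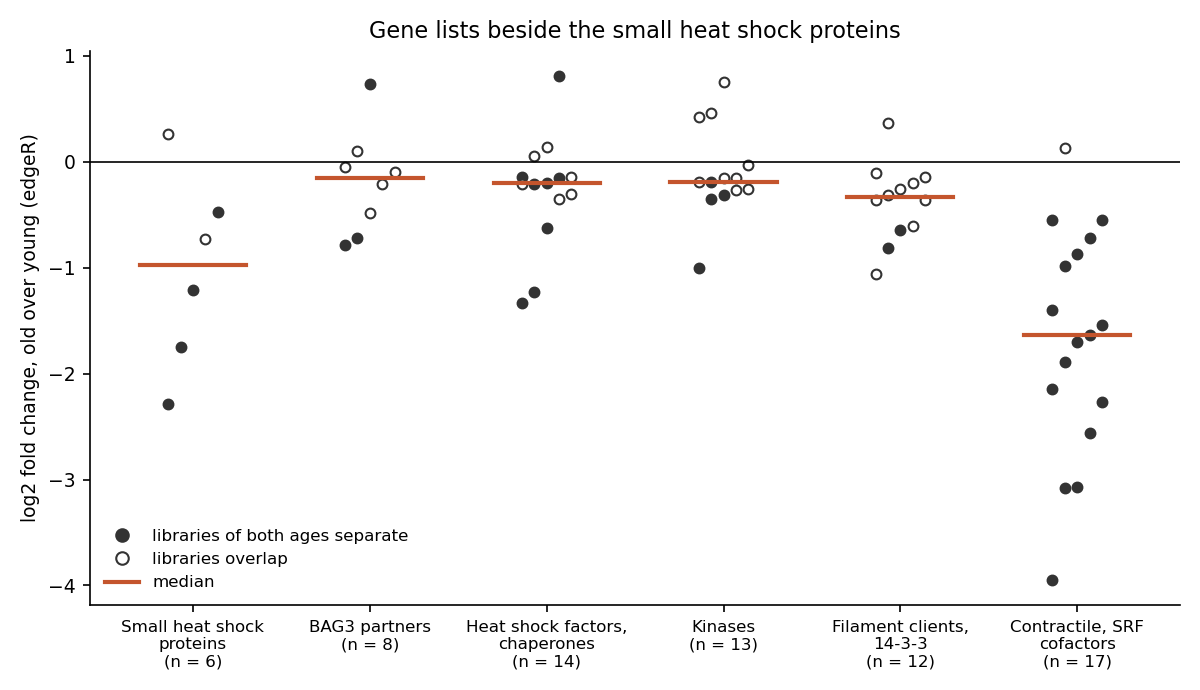
edgeR log2 fold change of old over young (vertical axis) for each gene of 6 lists (1 point per gene, sideways position arbitrary), with filled points where the libraries of both ages are separate, open points where they overlap and a line at the median. Medians are -0.97 for the small heat shock proteins, -0.16 for BAG3 partners, -0.21 for heat shock factors and chaperones, -0.19 for kinases, -0.33 for filament clients and 14-3-3 adaptors and -1.64 for contractile genes.

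Several of these chaperones are strongest in striated muscle, and other cells may be present in such cultures. In bulk RNA, fewer cells of a type and less RNA per cell cannot be told apart. Of 27 skeletal muscle markers, 12 had a row among the genes analysed here, without Myod1, Myog or Ckm. Their summed level was 186 to 400 CPM in young and 48.4 to 80.9 CPM in old libraries, with Acta1 and Myh1 the most abundant. Such a sum mostly follows its abundant genes. Counted gene by gene, 9 of these 12 markers went down with age and 3 went up. The middle of their log2 fold changes was -0.37, within a range of -3.51 to 0.92, and Acta1 and Myh2 were the lowest. Fibroblast markers, 10 of 10, summed to 534 to 898 CPM in young and 1375 to 2186 CPM in old libraries, with Col14a1 and Pdgfra the most abundant. Taken singly, 9 fibroblast markers went up with age and 1 went down, between -0.24 and 4.58 on the log2 scale (middle value 1.22). The VSM markers all went down, 8 of 8, between -3.08 and -0.55 (middle value -2.03). From these 2 lists edgeR called 0 genes, whereas DESeq2 called 3 fibroblast markers as higher and 7 VSM markers as lower. Endothelial markers, 6 of 10 and without Cdh5, were at 35.1 to 45.2 CPM in young and 32.9 to 44.1 CPM in old. Macrophage markers, 2 of 10 and without Ptprc, summed to at most 2.9 CPM, and Schwann cell markers, 5 of 8 and without Sox10, were at 29.8 to 84.6 CPM in young and 62.9 to 95.7 CPM in old. The part of the VSM, skeletal muscle and fibroblast sums in the lower values of Hspb1, Hspb6 and Cryab was not tested.

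The genes most like each small heat shock protein were found by Pearson's r of log2 CPM over the 6 libraries among 8843 genes with an average of at least 10 CPM. The best 3 of so many genes over 6 libraries have high values by selection, so they are a description only. For Hspb1 they were Cited2, Foxs1 and Stard13 (r from 0.997 to 0.999), with log2 fold changes of -1.94, -3.56 and -0.72. Those of Hspb6 were Jph2, which encodes junctophilin 2, Cdr2 and Palldl1 (0.996 to 0.999), and those of Cryab were Sox9, Mrps26 and Prrg4 (0.988 to 0.99). Mrps26 was also among the 3 of Hspb2, with Lpcat4 and Farsa (0.992 to 0.993). Vapa, Eif2s2 and Nae1 were nearest to Hspb7 (0.995 to 0.999), and Asxl1 and Sestd1 to Hspb8 (0.982 to 0.983).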

How the data were processed

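VSM cells of young and old rats were profiled by RNA sequencing. The authors deposited raw gene counts without normalization. Per their methods and the submitters' processing notes, reads were trimmed with cutadapt 3.5 through Trim Galore 0.6.7, aligned with STAR 2.7.10b to the rat assembly Rnor 6.0 and counted with featureCounts of Subread 2.0.8. The table carries Ensembl identifiers although a RefSeq annotation is named. Each of the 14475 genes reached 10 counts in 3 or more libraries, so low genes appear to have been removed. For its own test, the paper describes dropping genes that had under 10 counts in at least 3 samples. How strand, multi-mapped reads and mates were treated is not given in the sources used here.

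Old was compared with young in R 4.3.3 with edgeR 4.0.16 (TMM, quasi-likelihood F test, Benjamini-Hochberg adjustment over all genes, no covariates). A standard error is the size of the log2 fold change over the root of F, and 95% intervals use the t distribution with the degrees of freedom of that test. DESeq2 1.42.0, which gave no adjusted p for 292 genes, and limma-voom (limma 3.58.1) took the same input. Steps were tested on simulated data. Log2 CPM used a prior count of 2. Alternatives were other size factors, a filter on low CPM, both other tools, the replicate block and each library left out. Counts divided by 2 were added after the data had been seen.

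The 6 genes and the gene lists were chosen with earlier results of these data known. Named genes were the 6, all BAG3 partners, the 2 lowest and 2 highest of each other list and the 3 most similar genes of each, of which 1 is not reported here. Of other small heat shock proteins, Hspb3, Cryaa, Hspb9 and Odf1 had no row among the genes analysed here. The study gives 3 rats per age, and p-values measure the spread between these libraries.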

Additional observations from a re-analysis of the deposited data

How the results depend on the processing

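The log2 fold changes of Hspb1, Hspb2, Hspb6, Hspb7, Hspb8 and Cryab kept their sign under each of 13 alternatives, and edgeR with RLE factors, library size only, the replicate block or counts divided by 2 called 0 of the 6, as with TMM. Filtering at 1 CPM in at least 3 libraries gave 65 genes and 1 of the 6 (Hspb1, -1.21), with fewer genes tested. DESeq2 gave 805 genes and 3 of the 6 (Hspb1 at -1.21, Hspb6 at -1.76 and Cryab at -2.29), and limma-voom gave 0 genes, the cause of which was not tested. With 1 library left out, the number of genes called ran from 0 to 732 and that of the 6 from 0 to 3, the upper values without old replicate 1. Over those fits the log2 fold change ran from -1.35 to -1.11 for Hspb1, -0.55 to -0.40 for Hspb2, -2.22 to -1.46 for Hspb6, -1.45 to -0.38 for Hspb7, 0.06 to 0.47 for Hspb8 and -3.0 to -1.87 for Cryab. The difference in log2 ratio ran from -2.36 to -1.58 for Cryab over Hspb2, -0.92 to -0.40 for Hspb6 over Hspb1 and -0.09 to 0.57 for Hspb8 over Bag3, which was negative without young replicate 3 (-0.02) or old replicate 1 (-0.09). Same-numbered young and old libraries shared deviations with r of 0.0632, 0.322 and 0.313 across genes. Differently numbered libraries had r from -0.455 to 0.354. Young replicate 1 correlated best with old replicate 2 (0.354), whereas young replicates 2 and 3 correlated best with the old library of their own number. The labels name no pairs, so the main test used none. Whether same-numbered libraries share a batch was not tested. The replicate block gave 1 gene, and -1.21 (adjusted p = 0.0984 in edgeR) for Hspb1, -1.87 for Hspb6 and -2.34 for Cryab. Counting error at the lowest count of the 6 genes in any library was 4.7% of the value, or 6.64% if mates were counted separately.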
